A study of Mus musculus with 37 samples.

Results

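Astrocytes isolated from the contralateral hippocampus, the side away from a controlled cortical impact (CCI), were compared between mice that developed post-traumatic epilepsy (PTE+) and sham mice, across all genes counted by RNA-Seq. The comparison held every library whose label reads contralateral PTE+ (n = 5) or contralateral sham (n = 5), 10 of the 37 hippocampal astrocyte libraries of the series. All were wild-type mice, labelled WT CD31 and described in the methods as male CD1 mice, sampled 4 months after surgery. PTE+ mice received CCI over the right parietal cortex and had 2 or more epileptic episodes in continuous EEG recordings. Sham mice received the craniectomy and the EEG electrodes without the impact, so that both groups carried both. The contralateral libraries of injured mice without epilepsy (PTE-, n = 10) entered the fit to help estimate the spread and are given where their level helps to read a gene. Each library was 1 mouse, so the p-values measure the spread between mice. The cells were pulled down with beads against ACSA-2, an epitope on the astrocyte sodium pump subunit Atp1b2, so RNA of other cells that came through the pull-down can be present.

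Astrocytes take up glutamate and potassium after neuronal firing, exchange serine, lactate and cholesterol with neurons, and ensheath synapses and capillaries. After injury they enter reactive states that are tracked by genes such as Gfap and Vim, and immediate early genes such as Fos and Egr1 are induced within minutes by activity or by handling of the tissue. The contralateral hippocampus receives no direct impact but is connected to the injured side by commissural fibers and can take part in seizures. The comparison with sham mice therefore asks what differed in astrocytes remote from the impact once epilepsy was present. It holds injury and epilepsy together, and these cannot be told apart in it.

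Between 32949191 and 52945099 counts were assigned to genes in each of the 10 libraries. The libraries carried the astrocyte label: the 20 astrocyte markers summed to 84480 to 95720 TPM, a level scaled for transcript length and library size, in PTE+ and 83550 to 119000 TPM in sham. Microglia markers summed to 502 to 974 TPM in PTE+ and 164 to 918 TPM in sham, and endothelial and mural markers to 2100 to 8777 TPM in PTE+ and 2359 to 3576 TPM in sham, the highest being PTE+ mouse a8_10. Atp1b2 itself, which carries the ACSA-2 epitope, had a mean of 327.5 TPM in PTE+ and 377.9 TPM in sham (log2 fold change -0.23 ± 0.29). In such bulk samples fewer cells of a type and less RNA per cell cannot be told apart. The library of sham mouse a8_16 stood apart. It held 12122 detected genes against 13859 to 15321 in the other 9, and 386 of 6609 genes with a median above 1000 counts were at 3 counts or fewer in it, against 0 to 36 in the others. The PTE- libraries in the fit held 11756 to 15315 detected genes. Results that rest on sham a8_16 are given with and without it.

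No gene passed correction for multiple testing. Of 14642 genes tested, 0 had an adjusted p under 0.05 in edgeR's quasi-likelihood test with Benjamini-Hochberg adjustment, and the smallest adjusted p was 1.0. In counts simulated with each gene's own spread, 0% of 2-fold changes and 33% of 8-fold changes reached an adjusted p under 0.05. The count of 0 therefore does not show that the groups were alike. At an unadjusted p under 0.05 there were 180 genes (1.23% of those tested), 79 higher and 101 lower in PTE+. Of the unchanged genes in that simulation 4.65% had an unadjusted p under 0.05, so the 1.23% was below what simulated unchanged genes gave. The simulation held no library that lost many abundant genes at once, as sham a8_16 did. Its 4.65% need not be the share for unchanged genes in these libraries. DESeq2 on the same 3 groups gave 90 genes with an adjusted p under 0.05, of which 88 had at least 1 of the 10 libraries at 3 counts or fewer. The other two were the predicted genes Gm10800 and Gm21738, described below. DESeq2 on PTE+ and sham alone gave 88 such genes, of which 13 were above 3 counts in all 10 libraries, among them Zfp346, Xrn2 and Srm. All genes were therefore read by the criteria of the study's methods. These ask for a mean TPM over 5 in PTE+ or sham, a change of 1.2-fold or more and an unadjusted p under 0.05. The study took its p from DESeq2, whereas the edgeR p was used here. The counts with DESeq2 were larger and are given in the last section.

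These criteria were met by 75 genes, 0.512% of those tested. PTE+ levels were higher in 29 of them (0.198%) and lower in 46 (0.314%). In 57 of the 75 all 10 libraries had more than 3 counts, and among these 17 were higher and 40 lower. The log2 fold change was smaller than 1 in size in 31 of the 40. Of the 46 genes lower in PTE+, 32 had their highest value in sham mouse a8_16, and of the 29 higher genes 18 had theirs in PTE+ mouse a9_18. Over all genes tested, of both directions, these libraries held the highest value of 2630 and 2335 genes. All the lower genes that met the criteria had their highest value in a sham library, so the counts over all genes are not a like baseline. Among the 29 higher genes, 10 were predicted gene models that share sequence, described below. Without sham a8_16 the count was 40, with 18 higher and 22 lower, and 14 of each direction were among the 29 and the 46. Without sham a9_10 the count was 118.

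**Figure D1:**
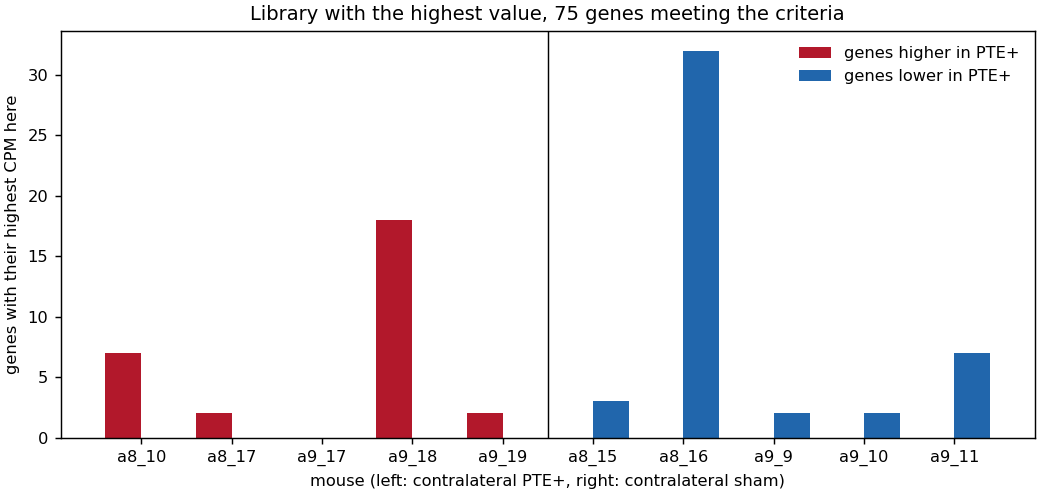
Number of genes (y axis) that had their highest CPM in each of the 10 contralateral libraries (x axis, by mouse), for the 29 genes higher and the 46 genes lower in PTE+ that met the criteria. Sham mouse a8_16 held the highest value of 32 of the 46 lower genes, and PTE+ mouse a9_18 of 18 of the 29 higher ones.

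Slc7a10, Sdc2 and Plpp3, genes of membrane proteins counted at high levels in these cells, were lower in PTE+ by modest amounts. Levels below are CPM, the counts scaled to library size, given for PTE+ mice a8_10, a8_17, a9_17, a9_18 and a9_19 and then for sham mice a8_15, a8_16, a9_9, a9_10 and a9_11, in these orders throughout. Slc7a10, which encodes the Asc-1 transporter of serine and other small neutral amino acids (mm10 chr7:35186385-35201114, overlapping Lrp3), was at 864, 920, 893, 751 and 815 CPM in PTE+ and at 1123, 1225, 1315, 909 and 1400 CPM in sham. Sham a9_10 fell below the highest PTE+ mouse and the other 4 sham mice lay above all PTE+ mice. The means were 848 ± 67.1 CPM in PTE+ and 1194 ± 190 CPM in sham (SD, n = 5 each), a log2 fold change of -0.49 ± 0.19 (SE) with an unadjusted edgeR p = 0.0149 and an adjusted p of 1.0, and an exact 2-sided permutation p = 0.0159, where the smallest possible is 0.00794. Its log2 fold change without sham a8_16 was -0.48 (edgeR p = 0.0248), and the unadjusted p stayed under 0.05 with any 1 library left out.

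Sdc2, encoding the heparan sulfate proteoglycan syndecan-2 (chr15:32920723-33034935), showed the same order of size. It was at 148, 215, 163, 177 and 216 CPM in PTE+ and at 285, 283, 331, 193 and 291 CPM in sham, where only sham a9_10 lay among the PTE+ values. The log2 fold change was -0.59 ± 0.20 (edgeR p = 0.00751, exact permutation p = 0.0238) and -0.58 without sham a8_16. Plpp3, a membrane phosphatase of lysophosphatidic acid and other lipid phosphates (chr4:105157347-105232764), was at 4223, 4448, 3729, 4108 and 3950 CPM in PTE+ and at 4491, 7113, 4594, 4165 and 5634 CPM in sham. Its log2 fold change of -0.35 ± 0.13 (edgeR p = 0.0179) was -0.21 without sham a8_16, where the edgeR p was 0.0999. The group of lower genes thus held members that did not depend on sham a8_16 (Slc7a10, Sdc2) and members that did (Plpp3).

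Zfp346, a zinc finger protein that binds double-stranded RNA (chr13:55105311-55134825), was counted in every library and was lower in PTE+. It was at 6.31, 23.5, 21.3, 11.9 and 10.2 CPM in PTE+ and at 33.5, 87.1, 65.3, 27.2 and 39.5 CPM in sham. The groups did not overlap in CPM, although the highest PTE+ and the lowest sham mouse were only 23.5 and 27.2 CPM. The log2 fold change was -1.79 ± 0.60 (edgeR p = 0.00661, adjusted p = 1.0, exact permutation p = 0.00794, the smallest the design allows). On log2(TPM + 1) the exact permutation p was 0.0159. Without sham a8_16 the log2 fold change was -1.50 (edgeR p = 0.0230), and with PTE+ a8_10 left out as well it was -1.31 (edgeR p = 0.0547). Of the alternative fits, DESeq2 on the 2 groups was the only one to give Zfp346 (and Xrn2, below) an adjusted p under 0.05. The 10 PTE- libraries ranged from 10.5 to 103 CPM with a median of 39.8 CPM, so that some lay at PTE+ levels and others at sham levels.

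Gpr19, an orphan G protein-coupled receptor (chr6:134869093-134898578), did not overlap either, with 36.6, 108, 89.2, 58.4 and 90.2 CPM in PTE+ and 163, 122, 188, 121 and 111 CPM in sham. Its log2 fold change was -0.88 ± 0.31 (edgeR p = 0.00941, exact permutation p = 0.00794), although the highest PTE+ and the lowest sham mouse were only 107.6 and 110.7 CPM. Xrn2, a nuclear exoribonuclease that degrades RNA from its 5′ end and takes part in transcription termination, was at 39.3, 42.5, 33.9, 43.5 and 52.6 CPM in PTE+ and at 62.7, 99.6, 62.8, 77.5 and 106 CPM in sham, again without overlap (log2 fold change -0.95 ± 0.39, edgeR p = 0.0223, exact permutation p = 0.00794). Leaving out sham a9_11 took the edgeR p of Xrn2 to 0.0568. Gca, the calcium-binding protein grancalcin (overlapping Kcnh7), and Ankzf1, a factor of ribosome quality control (overlapping Atg9a and Glb1l), had log2 fold changes of -1.71 ± 0.59 and -1.39 ± 0.55 (edgeR p = 0.0082 and 0.0193). Both lost an unadjusted p under 0.05 without sham a8_16 (0.0623 and 0.0766), in which they were highest.

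Over all genes tested, 92 (0.628%) had groups that did not overlap on the log2(CPM + 1) scale, 42 higher and 50 lower in PTE+. Of the 75 genes that met the criteria, 13 did so, 3 higher and 10 lower. The 10 lower ones were Zfp346, Gpr19, Xrn2, Ankzf1 and, named here after their values were seen, Srm, which encodes spermidine synthase, Bcat2, the mitochondrial branched-chain aminotransferase, the adaptor gene Efs, the cytochrome P450 gene Cyp2u1, Tedc1 and 8030462N17Rik. Srm was at 59.1 to 76.1 CPM in PTE+ and 88.9 to 153 CPM in sham (log2 fold change -0.75 ± 0.31), and Bcat2 at 6.63 to 38.0 CPM in PTE+ and 45.3 to 85.0 CPM in sham (log2 fold change -1.17 ± 0.50). The unadjusted edgeR p passed 0.05 for Srm without sham a9_10 (0.0723) and for Bcat2 without PTE+ a9_18 or sham a8_15 (up to 0.0745). The 3 higher ones were Gm21738, Gm10801 and the interferon-inducible nuclear body gene Sp110, which was at 3.84 to 27.3 CPM in PTE+ and at 0 to 1.37 CPM in sham. Sp110 (overlapping G530012D18Rik) had an edgeR p = 0.0491, which passed 0.05 in 8 of the 10 fits that left out 1 library. Of the 65 genes chosen by the naming rule, 18 had an exact permutation p under 0.05, as did 3.64% of all genes tested. All 18 had been chosen by their edgeR p in this same contrast, so their number is not a test.

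**Figure D2:**
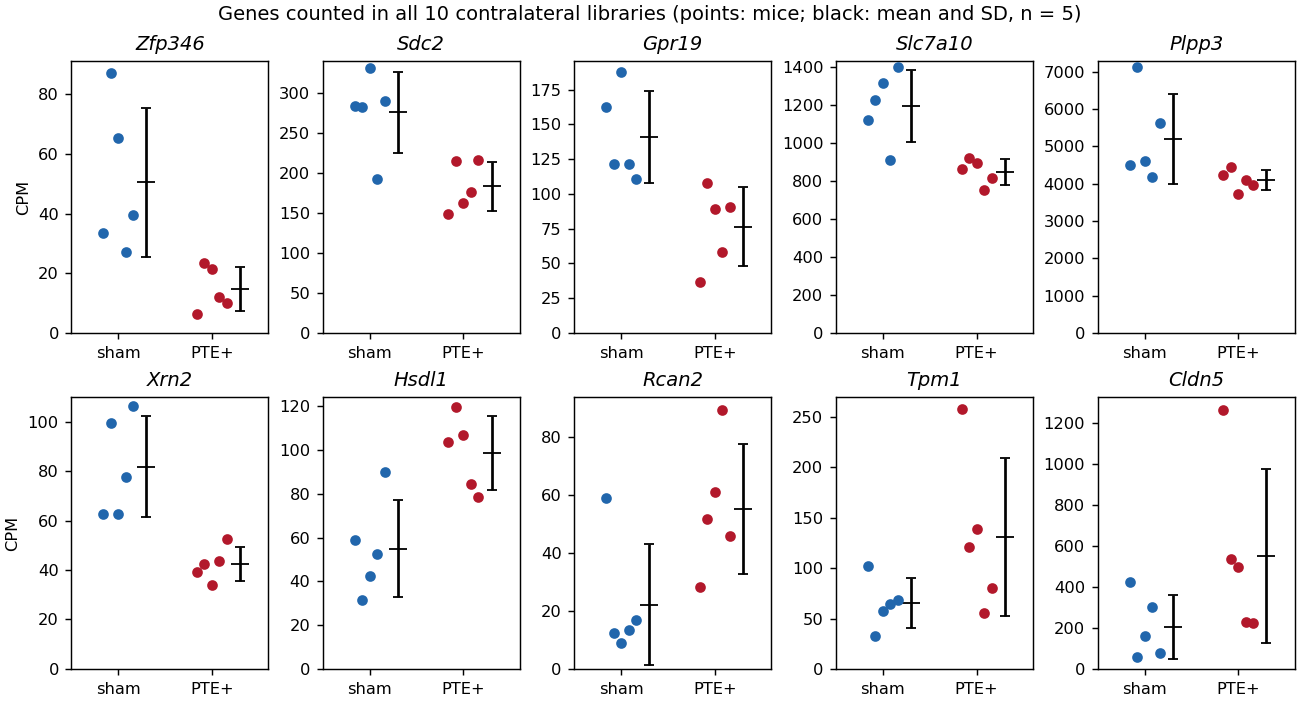
CPM (y axis, linear from 0) of 10 genes counted in all 10 contralateral libraries, by group (x axis); each point is 1 mouse and the black bar is the mean with SD (n = 5). Zfp346, Gpr19 and Xrn2 did not overlap between groups, whereas single mice crossed in the other genes, for example the sham mouse at 59.1 CPM in Rcan2.

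Among canonical astrocyte markers the direction was mostly downward but small. Of 20 tested, 17 were lower and 3 (Aqp4, S100b and Gfap) higher in PTE+, with a median log2 fold change of -0.23 against 0.03 over all genes tested, and 1, F3, had an unadjusted p under 0.05 (1.23% of all genes did). F3, which encodes the coagulation initiator tissue factor and is abundant in astrocytes, was at 1201, 1541, 950, 778 and 936 CPM in PTE+ and at 1477, 2122, 1439, 1046 and 1768 CPM in sham (log2 fold change -0.54 ± 0.22, edgeR p = 0.021, exact permutation p = 0.0635). Its unadjusted p passed 0.05 when PTE+ a9_18, PTE+ a9_19 or sham a8_16 was left out, at 0.0786 for the last. The glutamate transporter Slc1a3 had a log2 fold change of -0.32 ± 0.17 (edgeR p = 0.0753), and Apoe, the main lipid carrier of astrocytes and the most abundant marker, of -0.14 ± 0.21 (edgeR p = 0.502). Without sham a8_16 the median of the markers was -0.14, and without both this library and PTE+ a8_10, the PTE+ library with the fewest detected genes, it was -0.10. Markers of other cell types moved beside this: the median was 0.83 for 13 microglia markers (11 higher) and 0.89 for 13 endothelial and mural markers (11 higher), or 0.48 and 0.43 without PTE+ a8_10. The microglia median was 1.34 without sham a9_10, and the part of these cells in the lower astrocyte values was not tested.

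In the reactive astrocyte lists no member had an unadjusted p under 0.05. Of 11 pan-reactive genes tested 6 were higher and 5 lower (median log2 fold change 0.03), of 11 A1 genes 9 were higher (0.25) and of 9 A2 genes 6 were higher (0.28). Gfap, the intermediate filament of reactive astrocytes, was at 579, 459, 796, 1471 and 1125 CPM in PTE+ and at 709, 829.2, 469.5, 871 and 350.4 CPM in sham, with a log2 fold change of 0.46 ± 0.43 (edgeR p = 0.305). Vim was at 118 to 430 CPM in PTE+ and 63.4 to 406 CPM in sham (log2 fold change 0.33 ± 0.49, edgeR p = 0.515). Lcn2 passed 3 counts in 1 library of each group, Timp1 was at 0 in all 10 libraries, and Cxcl10 was at 0 to 11.1 CPM in PTE+ and 1.69 to 20.3 CPM in sham (edgeR p = 0.53). The groups overlapped in each of these 5 genes.

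Genes of glutamate, GABA, potassium and water homeostasis were lower in 15 of 21 (median log2 fold change -0.13, none with an unadjusted p under 0.05). Metallothioneins, which bind zinc and copper, and antioxidant genes were lower in 17 of 21 (median -0.20). Mt2 was the member with an unadjusted p under 0.05, at 159 to 263 CPM in PTE+ and at 250, 679, 478, 257 and 159 CPM in sham. Its log2 fold change of -0.88 ± 0.37 (edgeR p = 0.0258, exact permutation p = 0.135) became -0.53 (p = 0.148) without sham a8_16, and the unadjusted p passed 0.05 in 5 of the 10 fits that left out 1 library. Genes of cholesterol synthesis and transport were lower in 15 of 22 (median -0.15), where Msmo1, a sterol methyl oxidase, had a log2 fold change of -0.55 ± 0.24 (edgeR p = 0.0309). Its edgeR p passed 0.05 in 5 of the 10 fits that left out 1 library and was highest, at 0.0916, without sham a8_16.

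Immediate early genes had the lowest median of the pathway lists. Of 17 tested, 14 were lower in PTE+ (median log2 fold change -0.54) and 1, Egr1, had an unadjusted p under 0.05. Egr1, a transcription factor induced by synaptic activity and growth factors, was at 53.5, 18.3, 26.9, 5.28 and 64.3 CPM in PTE+ and at 387, 146, 14.8, 11.6 and 359 CPM in sham. Sham mice a8_15, a8_16 and a9_11 lay above all PTE+ mice, and sham mice a9_9 and a9_10 lay among the lowest PTE+ mice. The log2 fold change was -2.45 ± 0.97 with an edgeR p = 0.0194, an adjusted p of 1.0 and an exact permutation p = 0.198, and the edgeR p was up to 0.0581 when sham a8_15 or a9_11 was left out.

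The same sham mice were high for Fos, and a8_15 and a8_16 also for Junb. Fos was at 276, 77.1, 54.2, 39.1 and 41.5 CPM in PTE+ and at 1427, 422, 0, 26.3 and 671 CPM in sham (log2 fold change -2.38 ± 1.26, edgeR p = 0.0711, exact permutation p = 0.857). The count of 0 in sham a9_9 came from a library of 50801017 counts. Junb was at 69.2 to 376 CPM in PTE+ and at 655, 464, 40.1, 88.9 and 260 CPM in sham (log2 fold change -0.94 ± 0.70). In all 3 genes the sham mice held both the highest values and values within or below the PTE+ range. Without sham a8_15 the list's median was -0.21.

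**Figure D3:**
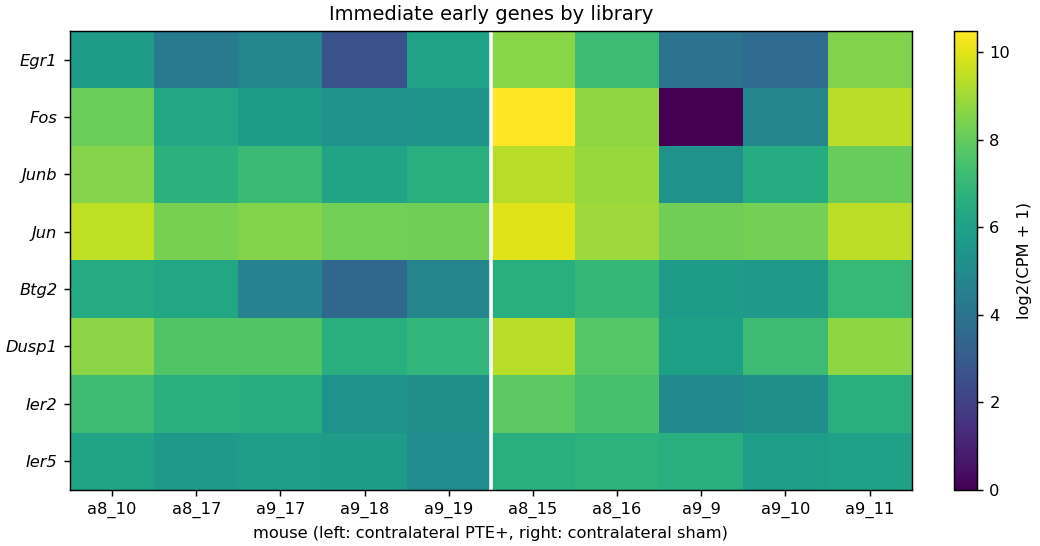
Levels of 8 immediate early genes as log2(CPM + 1) (color scale) in the 10 contralateral libraries (x axis, by mouse; PTE+ left and sham right of the white line). Sham mice a8_15, a8_16 and a9_11 were brightest in Egr1 and Fos, and sham mice a9_9 and a9_10 were within or below the PTE+ range in both, with Fos at 0 in a9_9.

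Of the 13 endothelial and mural markers tested, 11 were higher in PTE+ and 1, Cldn5, had an unadjusted p under 0.05. Cldn5, the tight junction protein claudin-5 of brain endothelium, was at 1264, 534, 499, 230 and 222 CPM in PTE+ and at 424, 60.6, 162, 303 and 78.4 CPM in sham. The log2 fold change was 1.42 ± 0.58 (edgeR p = 0.0227, exact permutation p = 0.0873), and 3 of the 10 fits that left out 1 library (PTE+ a8_10, sham a8_16 or sham a9_11) took the unadjusted p above 0.05, up to 0.143. Flt1, a receptor of vascular endothelial growth factor, was at 87.5 to 447 CPM in PTE+ and 22.0 to 198 CPM in sham (log2 fold change 1.04 ± 0.61, edgeR p = 0.103), and Acta2, smooth muscle actin, at 32.1 to 665 CPM in PTE+ and 24.5 to 177 CPM in sham (log2 fold change 1.10 ± 0.98). PTE+ mouse a8_10 was the highest of all 10 libraries in these 3 genes. Without it the median of the endothelial and mural list was 0.43 in place of 0.89. Tpm1, which encodes a tropomyosin of actin filaments, was also highest in PTE+ a8_10 (258 CPM, against 55.9 to 139 CPM in the other PTE+ mice and 32.8 to 102 CPM in sham), with a log2 fold change of 1.01 ± 0.41 (edgeR p = 0.0223), and its edgeR p was 0.145 without PTE+ a8_10 and 0.0591 without sham a8_16.

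Hsdl1 and Rcan2 were higher without a8_10 being the extreme. Hsdl1, a member of the short-chain dehydrogenase family (chr8:119561989-119575183), was at 104, 120, 107, 84.4 and 78.7 CPM in PTE+ and at 58.9, 31.7, 42.4, 52.4 and 89.8 CPM in sham. Only sham a9_11 lay within the PTE+ range, and the log2 fold change of 0.84 ± 0.33 (edgeR p = 0.0187, exact permutation p = 0.0238) kept an unadjusted p under 0.05 with any 1 library left out. Rcan2, a regulator of the phosphatase calcineurin, was at 28.3, 51.6, 61.1, 89.4 and 45.9 CPM in PTE+ and at 59.1, 12.2, 8.92, 13.4 and 16.9 CPM in sham (log2 fold change 1.32 ± 0.53, edgeR p = 0.0212, exact permutation p = 0.0317). The sham mouse that overlapped was a8_15. The edgeR p passed 0.05 without PTE+ a9_18 (0.067), sham a9_9 or sham a9_10. The 10 PTE- libraries were at 32.5 to 113 CPM with a median of 46.2 CPM for Rcan2, a range that holds 4 of the 5 PTE+ mice.

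A few genes of low level were counted in some libraries of 1 group and in none of the other. Thbs1, encoding the synapse-promoting matrix protein thrombospondin-1, was at 15.7, 11.2, 4.64, 1.08 and 0 CPM in PTE+ and at 0 in all 5 sham libraries. Against 3 counts in each sham library its mean was at least 90.7-fold higher (58.8-fold without PTE+ a8_10), with an edgeR p = 0.00255, the smallest of all genes tested, an adjusted p of 1.0 and an exact permutation p = 0.0476. Its mean of 1.62 TPM in PTE+ was under the level the criteria ask for, and in PTE- it passed 3 counts in 2 of 10 libraries.

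Ptgfr, the prostaglandin F receptor gene, was at 15.9, 9.72, 0, 16.2 and 4.09 CPM in PTE+ and did not exceed 3 counts in any sham library (edgeR p = 0.00592, exact permutation p = 0.0476). In the other direction Rtp1, which helps odorant receptors reach the cell surface, was at 0 in all PTE+ libraries and at 0, 44.1, 0.999, 7.44 and 0.396 CPM in sham (at least 144-fold lower in PTE+ against 3 counts in each library, edgeR p = 0.00291). Most of the sham mean was sham a8_16, without which the bound was 30.1-fold and the edgeR p 0.00721. Ninj2, a cell adhesion gene of glia, was at 0 in all PTE+ libraries and above 3 counts in 3 of 5 sham libraries (at least 29.5-fold lower, or 14-fold without sham a8_16, edgeR p = 0.00813, exact permutation p = 0.167), and Ccdc69 was likewise at 3 counts or fewer in all PTE+ libraries and above it in 3 sham libraries. In PTE- each of Rtp1, Ninj2 and Ccdc69 was above 3 counts in 5 of 10 libraries.

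Members of other lists were of this kind as well. Ccnf, which encodes cyclin F, was at 0 in all PTE+ libraries and above 3 counts in 3 of 5 sham libraries (at least 65.4-fold lower in PTE+, edgeR p = 0.0126, exact permutation p = 0.167), while the 22 cell cycle genes tested were 13 higher and 9 lower (median log2 fold change 0.11). Kl, the choroid plexus gene klotho, did not exceed 3 counts in any PTE+ library and reached 5.46 CPM in sham (edgeR p = 0.0148, and 0.0591 without sham a9_11), while 8 of the 9 ependymal and choroid plexus markers tested were higher (median 0.26). Cd3e of T cells was counted in 1 of the 10 libraries only, sham a9_10, and its edgeR p of 0.0479 rests on that library. These genes were at the limit of counting, and their fitted fold changes depend on that limit.

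The largest differences among genes above the limit were in predicted gene models that share repeated sequence. Mouse chromosomes carry tandem arrays of major satellite DNA next to the centromere, and a few annotated models contain pieces of it. The 12 such models described here were listed after their levels were seen, so their count is not a test. Of the 12, 10 met the criteria, all higher in PTE+, beside 0.512% of all genes tested. Only 4 of the 12 (Gm10800, Gm21738, Gm10719 and Gm10718) had more than 3 counts in all 10 libraries. The other models had at least 1 library at 3 counts or fewer. They share sequence and are not 10 separate results. That they are repeats was read from the GENCODE vM21 transcripts: the 10 models on chromosomes 9 and 14 matched themselves 234 bases further along, the distance of best match among 100 to 300 bases, at 62.4% to 69.7% of positions, against 26.5% to 30.7% in Zfp346, Sdc2, Slc7a10, Plpp3 and Hsdl1, and the models on chromosome 2, Gm10800 and Gm10801, at 43.0% and 36.7%. Between 37.1% and 94.5% of each model's stretches of 30 bases recurred in another of the 12. Reads that lie wholly in a shared stretch fit more than 1 model, so that the level of any 1 model is uncertain. The longest run shared by 1 model from each of chromosomes 9, 14 and 2 was 67 bases, shown in capitals within the mm10 transcripts of Gm10718 (chr9:3023547-3025218), Gm21738 (chr14:19415857-19418930) and Gm10800 (chr2:98666547-98667301), because it shows letter for letter what these models share.
Gm10718: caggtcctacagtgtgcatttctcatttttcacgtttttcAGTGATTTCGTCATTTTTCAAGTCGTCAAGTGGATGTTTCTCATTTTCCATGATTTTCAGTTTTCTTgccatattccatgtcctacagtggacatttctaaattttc
Gm21738: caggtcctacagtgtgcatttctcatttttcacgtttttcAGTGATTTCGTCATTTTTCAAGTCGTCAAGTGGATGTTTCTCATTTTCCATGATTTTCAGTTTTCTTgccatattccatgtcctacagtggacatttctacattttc
Gm10800: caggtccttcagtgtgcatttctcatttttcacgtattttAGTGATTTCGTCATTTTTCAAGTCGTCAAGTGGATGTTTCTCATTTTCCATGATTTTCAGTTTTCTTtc

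Gm10800 was at 17.7, 326, 9.01, 484 and 9.65 CPM in PTE+ and at 0.152, 10.2, 2.19, 0.367 and 0.185 CPM in sham. PTE+ mice a8_17 and a9_18 were far above the other 3 PTE+ mice, of which a9_17 and a9_19 lay below sham a8_16. The log2 fold change was 6.01 ± 2.06 (edgeR p = 0.00816, exact permutation p = 0.0238). Gm21738 did not overlap between groups, at 2.83, 49.5, 1.61, 71.3 and 1.34 CPM in PTE+ and 0.115 to 1.16 CPM in sham (log2 fold change 5.52 ± 1.84, edgeR p = 0.00661, exact permutation p = 0.00794). Gm10719 and Gm10718 on chromosome 9 followed the same mice, with log2 fold changes of 4.92 ± 1.76 and 4.82 ± 1.80.

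The 12 models together took 0.00271% to 0.163% of counts in PTE+ libraries and 0.000128% to 0.00388% in sham libraries. Without PTE+ a8_17 and a9_18, a choice made after the data were seen, 0 of the 12 met the criteria, and the log2 fold change of Gm10800 was 2.21 (edgeR p = 0.239) and that of Gm21738 1.80 (edgeR p = 0.283). Injured mice without epilepsy also held high libraries: the 10 PTE- libraries reached 952 CPM for Gm10800, with a median of 18.4 CPM. Olfactory receptor genes, which are silent in most of the brain, were also looked at after the data were seen. Of 1145 listed, 808 were at 3 counts or fewer in all 10 libraries and 120 were tested. Of these, 92 were higher in PTE+ (median log2 fold change 0.73, and 0.24 without PTE+ a9_18), against 7692 of all 14642 genes tested. Their summed level was 452 TPM in PTE+ a9_18 against 104 to 261 TPM in the other 9 libraries. It did not follow the models in every mouse. PTE+ a8_17 and a8_10 were at 261 and 254 TPM for the receptors, but at 3604 and 273 TPM for the models. A link between the olfactory receptor genes and the higher levels of these models was not tested.

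**Figure D4:**
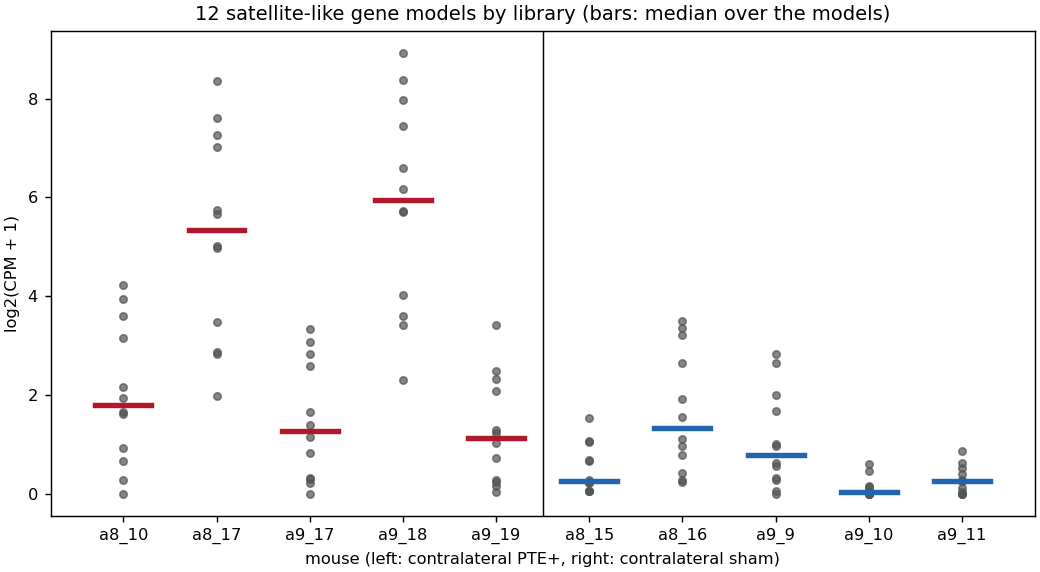
Levels of 12 satellite-like gene models as log2(CPM + 1) (y axis) in each of the 10 contralateral libraries (x axis, by mouse); points are models and colored bars their median. PTE+ mice a8_17 and a9_18 stand above every other library, and the other 3 PTE+ mice are near sham mouse a8_16.

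The remaining lists are given by their counts and medians, beside 7692 of 14642 genes higher and a median of 0.03 over all genes tested. Oxidative phosphorylation (12 of 23 higher, median log2 fold change 0.02), chaperones (9 of 16 higher, 0.03), cytoplasmic ribosomal proteins (22 of 31 higher, 0.13) and glycolysis, glycogen and lactate transport (16 of 23 lower, -0.08) had no member with an unadjusted p under 0.05. Interferon response and antigen presentation genes were higher in 20 of 32 (median 0.24), and the hypoxia response in 6 of 15 (-0.07), again without such a member. Of 30 genes of mRNA decay tested 18 were lower (-0.15), with Xrn2 as the 1 member under 0.05. Semaphorins, plexins and neuropilins, guidance molecules for axons, were higher in 18 of 29 (0.30), TGF-beta and STAT3 signalling in 13 of 18 (0.27), and synapse-organizing and phagocytic genes in 7 of 12 (0.07). Extracellular matrix and pleiotrophin axis genes were lower in 6 of 10 (-0.11), cystatins, cathepsins and lysosome genes in 11 of 17 (-0.04) and glucocorticoid response genes in 7 of 12 (-0.17). Among further cell type markers, neuron markers were higher in 12 of 18 (0.27, and -0.38 without PTE+ a9_19), oligodendrocyte lineage markers in 6 of 14 (-0.14), haemoglobin genes in 5 of 5 (1.06, and 0.63 without PTE+ a8_17) and macrophage markers in 5 of 5 (1.58). Macrophage markers summed to 169 TPM in PTE+ a8_10 against 4.62 to 39.9 TPM in the other PTE+ mice, and without that library their median was 0.56. Leaving out 1 library turned the sign of the median in 13 of the 29 cell type and pathway lists with at least 5 members tested, among them the pan-reactive, A1, A2, neuron and ribosomal protein lists.

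**Figure D5:**
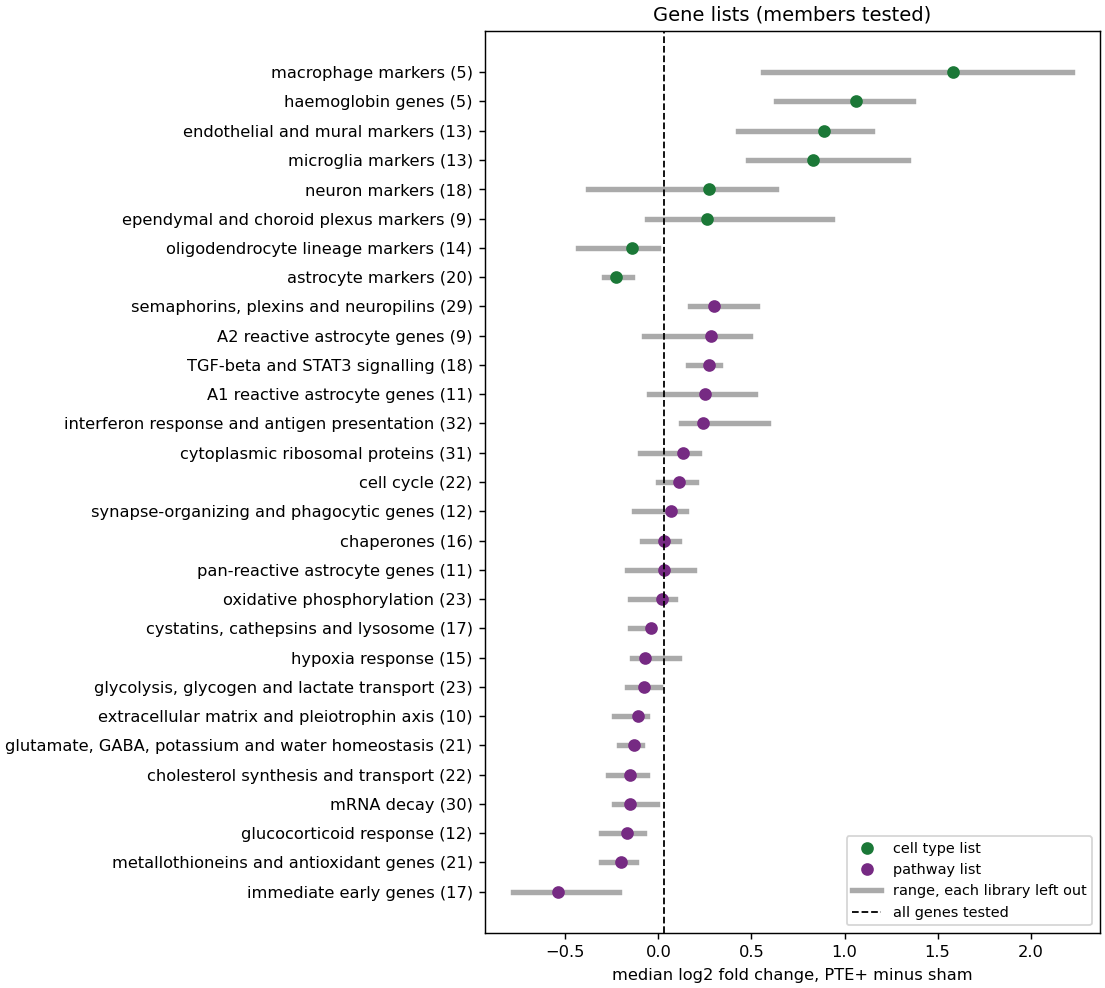
Median log2 fold change, PTE+ minus sham (x axis), of each cell type or pathway list with at least 5 members tested (y axis, number tested in parentheses); grey bars span the fits that left out 1 library and the dashed line is the median of all 14642 genes, 0.03. Of the 29 lists drawn, immediate early genes lie lowest at -0.54 and macrophage markers, with 5 genes, highest at 1.58. The satellite-like models (5.03) and olfactory receptor genes (0.73) are not drawn.

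Cst3, Sema3f, Ptn, Eml1, Map2 and Map1b, which the study names as altered in PTE+ astrocytes, had unadjusted p above 0.05 against sham. The study reports Cst3 and Sema3f for PTE+ against PTE-, a contrast that the comparison with sham does not repeat. Cst3, which encodes the cysteine protease inhibitor cystatin C, was at 10580, 11260, 4916, 5396 and 7939 CPM in PTE+ and at 10050, 19410, 10340, 7454 and 7356 CPM in sham (log2 fold change -0.45 ± 0.39, edgeR p = 0.263). Sema3f, a secreted repellent of axons, was at 27.2, 1.03, 31.2, 19.3 and 14.2 CPM in PTE+ and at 2.91, 0, 0, 13.9 and 6.62 CPM in sham (log2 fold change 1.98 ± 1.65, edgeR p = 0.241, exact permutation p = 0.0873). Sema3f was higher than every sham mouse in 4 of 5 PTE+ mice. In PTE- it was at 0 to 0.0464 CPM and above 3 counts in 0 of 10 libraries. Ptn, the growth factor pleiotrophin, had a log2 fold change of -0.41 ± 0.23 (edgeR p = 0.0905). The microtubule genes Eml1, Map2 and Map1b had log2 fold changes of 0.42 ± 0.87, 0.39 ± 0.34 and 0.74 ± 0.68, with edgeR p of 0.634, 0.261 and 0.286.

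The contralateral difference was then set against the ipsilateral one in the 4 PTE+ and 5 sham mice with a library of both hemispheres (PTE+ a8_17 had none). Of 15045 genes tested, 0 had an adjusted p under 0.05 for the interaction of group and hemisphere in edgeR, and 350 (2.33%) had an unadjusted p under 0.05. With the mouse as a replicate block, pairing its hemispheres, the counts were 0 and 203. Of the 65 genes chosen by the naming rule, 9 had an exact permutation p under 0.05 for the difference between hemispheres, and 4.18% of all genes tested did. Many of these genes were chosen for their contralateral difference, and the hemisphere test uses the same contralateral values, so that it is not independent of that choice.

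Zfp346, lower in contralateral PTE+, was not lower on the injured side, where it was at 26.2, 51.6, 49.3 and 68.1 CPM in PTE+ (a8_10, a9_17, a9_18 and a9_19) and at 26.9, 26.7, 0, 33.7 and 30.2 CPM in sham. On the log2(CPM + 1) scale the PTE+ minus sham difference was -1.93 contralaterally and 1.63 ipsilaterally, and the difference between them had an exact permutation p = 0.0159. The ipsilateral sham value of 0, in a9_9, enters this difference. That library held 10886 detected genes, against 14026 to 15545 in the other ipsilateral sham libraries. In it 749 abundant genes were at or below the limit of detection, against 1 to 7 in those libraries. Whether the 0 of Zfp346 was such a loss was not tested. The other ipsilateral sham mice were at 26.7 to 33.7 CPM, within the PTE+ range of 26.2 to 68.1 CPM. The edgeR interaction p of 0.0411 was 0.114 with the mouse as a replicate block. Ankzf1 (-1.41 and 0.55, exact permutation p = 0.00794) and Xrn2 (-0.92 and 0.22, exact permutation p = 0.0238) also had differences of opposite sign on the 2 sides. Slc7a10 (-0.51 and -0.36, exact permutation p = 0.698) and Plpp3 (-0.35 and -0.27, exact permutation p = 0.77) were lower on both sides by amounts whose difference did not pass the test. Sdc2 was lower mainly on the contralateral side (-0.64 and -0.08, exact permutation p = 0.0714), and its difference did not pass the test either.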

How the data were processed

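Hippocampal ACSA-2+ astrocytes were sequenced with the SMART-Seq V4 kit, which keeps neither strand nor molecular identifiers. The authors trimmed reads with Trim Galore 0.6.4 and mapped them to mm10 with RSEM 1.2.28 and Bowtie2 2.4.1; the annotation release is not given in the sources used here. The deposited tables hold expected counts and TPM per gene. Symbols and positions came from GENCODE vM21 (21856 IDs matched, 119 did not).

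Expected counts were rounded. The 20 contralateral libraries (5 PTE+, 10 PTE-, 5 sham) were fitted in edgeR 4.0.16 (R 4.3.3; filterByExpr, TMM, quasi-likelihood F test, Benjamini-Hochberg). CPM used TMM-scaled library sizes. Single genes were tested by exact 2-sided permutation on log2(CPM + 1) over 252 label sets (126 for hemispheres). A level of 3 counts was taken as the limit of detection, and counting error only enters it. Alternatives used DESeq2 1.42.0 and limma 3.58.1. The code was tested on simulated data.

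Named genes were those with an adjusted p under 0.05 (none), up to 8 per direction meeting the criteria with more than 3 counts in all 10 libraries, up to 4 per direction meeting the criteria at 3 counts or fewer in all libraries of 1 group, list members with an unadjusted p under 0.05, the member of each list with the highest TPM, and 10 genes named by the study. Members and lists were chosen with earlier results of these data known. Mouse names pair the 2 hemispheres of 1 animal. Over 17 mice the deviations of paired libraries from their group means correlated with a median of 0.072 (lowest -0.0309), against -0.016 between different mice.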

Additional observations from a re-analysis of the deposited data

Results flagged for a closer look

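In groups of 5, Dixon's ratio picked out 12 of 130 gene and group combinations. Chance picks about 1 in 20 among normally spread values only, so no excess is read from the 12. Among genes at the limit of counting these were single libraries above others at 0, where the ratio is 1.0 whatever the level: Ptgfr in sham a8_16 (0.0422 CPM), Ccdc69 in PTE+ a9_17 (0.0273 CPM), Cd3e in sham a9_10 (1.65 CPM), Cd2 in sham a8_16 (13.5 CPM) and Lcn2 in sham a9_10 (4.71 CPM). Among well counted genes single libraries were low: Ankzf1 in PTE+ a8_10 (7.28 CPM, next 23.5), Hba-a1 in sham a8_16 (11.3 CPM, next 149.7), Sema3f in PTE+ a8_17 (1.03 CPM, next 14.2), Map1b in PTE+ a8_17 (11.8 CPM, next 99.5), Hspa8 in sham a9_10 (580.2 CPM, next 1079), and Tm4sf1, low in PTE+ a9_19 (51.1 CPM, next 219) and in sham a9_11 (68.4 CPM, next 204).

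In 9 genes the PTE+ minus sham difference on the log2(CPM + 1) scale differed between hemispheres at an exact 2-sided permutation p under 0.05 over mice. Taken as ipsilateral minus contralateral, it was 3.55 for Zfp346 (p = 0.0159), 1.96 for Ankzf1 (p = 0.00794), 1.84 for Kl (p = 0.0317), 1.51 for Gca (p = 0.00794) and 1.13 for Xrn2 (p = 0.0238). It was -2.01 for Thbs1 (p = 0.0238), -2.09 for Gm21738 (p = 0.00794), -2.50 for Gm10800 (p = 0.0317) and -2.49 for Gm10719 (p = 0.0397). These p-values are not adjusted, and 629 of 15045 genes (4.18%) had one under 0.05. The 9 genes were chosen by their contralateral p, and the same contralateral values enter this test. The ipsilateral library of sham a9_9, in which many abundant genes were at or below the limit of detection, also enters it. With the mouse as a replicate block, the edgeR interaction p was 0.114 for Zfp346, 0.0984 for Gm21738, 0.0912 for Gm10800 and 0.0525 for Kl. It was under 0.05 for the other genes.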

How the results depend on the processing

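The count of 0 genes with an adjusted p under 0.05 was 88 with DESeq2 on the 2 groups and 90 with DESeq2 on 3 groups; 75 and 88 of these had a library at 3 counts or fewer. The other alternatives gave 0. The 75 genes meeting the criteria (38.7% higher) became 481 and 140 with DESeq2 on 2 and 3 groups, 240 with the 2 groups alone, 383 with limma voom, 182 with limma on log2(TPM + 1) (110 higher, 72 lower), 141 with a mean TPM above 1, 42 (25 higher, 17 lower) without the PTE+ and sham libraries of fewest detected genes (a8_10 and a8_16, chosen after seeing the data), and 40 (sham a8_16) to 118 (sham a9_10) with 1 library left out. The cause of these shifts was not tested. The split was 42 higher to 38 lower with detected genes as a covariate and 15 to 42 without PTE+ a8_17 and a9_18. The interaction count stayed 0 with the replicate block. Of the named genes, 1 turned direction at an unadjusted p under 0.05: the log2 fold change of Cd2, -0.14 as fitted, was 6.53 with limma voom, 10 without the libraries of fewest detected genes, and -0.68 (PTE+ a9_18) to 9.68 (sham a8_16) with 1 library left out. A depth of 3 counts in libraries of 32949191 to 52945099 limits what is said of Thbs1, Rtp1, Ninj2 and Ccnf.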
